A study of Homo sapiens with 10 samples.

Results

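The HOX genes are the 39 genes whose symbols are HOXA, HOXB, HOXC or HOXD followed only by digits, and all 39 were found by symbol among the 26256 genes of the table for MCF10A and G12V cells and among the 55736 genes of the table for the Nutlin-3a experiment. They lie in 4 clusters, with 11 genes in HOXA, 10 in HOXB, 9 in HOXC and 9 in HOXD. Poly(A) RNA was sequenced from parental MCF10A cells, a non-transformed, immortalized human breast epithelial line, and from G12V cells, which are MCF10A cells labelled H-RAS Gv12, with 2 libraries of each and no treatment. In a separate experiment parental MCF10A cells were given 10 µM Nutlin-3a, which blocks the binding of MDM2 to p53, or the same volume of its solvent DMSO, for 4 h, with 3 libraries of each. The G12V oncogene came in on a lentivirus together with a GFP vector, the carriers were selected with hygromycin, and the cells grew out after an arrest of some weeks, while the sources used here do not mention an empty vector in the MCF10A libraries. The labels speak of biological replicas without naming separate cultures, so p-values measure the spread between these libraries, which may be partly technical.

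HOX proteins are homeodomain transcription factors that give cells along the body axis their positional identity. Within a cluster the genes stand in the order in which they are used, from the anterior genes, which respond early to retinoic acid, to the posterior ones, and genes at the same place in different clusters are paralogues with the same number. Polycomb complexes keep HOX genes silent where they are not used, Trithorax complexes keep them active, and the TALE proteins of the PBX, MEIS and PKNOX families bind DNA together with HOX proteins. Adult epithelia keep some HOX expression, and breast tissue is among them. Paralogue groups 1 to 3 are called anterior here, 4 to 8 central and 9 to 13 posterior.

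The 10 libraries held between 15453226 and 23683975 counted reads. HRAS, which checks the G12V label, had 14753 and 11542 reads in G12V and 1598 and 1496 reads in MCF10A libraries, higher by 3.05 on the log2 scale (edgeR FDR 0.00165, SE 0.23), and reads of the endogenous and introduced copies are counted together. The p53 targets CDKN1A and MDM2, which check the Nutlin-3a label, rose by log2 fold changes of 2.16 and 2.54. The labelled epithelial type was checked by its markers. In MCF10A libraries the 6 epithelial markers CDH1, EPCAM, KRT5, KRT14, KRT17 and KRT18 summed to 6518 and 8030 CPM, reads per 1e6 reads of the library, and in G12V libraries to 1152 and 1429 CPM, with KRT14 at 2 and 3 reads and CDH1 at 10 and 12 reads. The 5 mesenchymal markers VIM, CDH2, ZEB1, ZEB2 and SPARC summed to 898 and 1088 CPM in MCF10A and to 1559 and 2048 CPM in G12V cells. In the 6 libraries of the Nutlin-3a experiment the epithelial markers summed to between 3343 and 6144 CPM and the mesenchymal ones to between 685 and 927 CPM. In G12V all 6 epithelial markers were lower and all 5 mesenchymal markers higher. By the test and thresholds given below, 5 of the 6 passed as lower, where 5.95% of all tested genes did. Of the mesenchymal markers 4 of the 5 passed as higher, where 5.01% of all tested genes did. These markers move with each difference between MCF10A and G12V cells given here, and their part in it was not tested. In such bulk libraries fewer cells with a transcript and less of it per cell cannot be told apart.

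The HOX genes expressed in these cells came from 3 of the 4 clusters. The 250 bases before the start of genes of paralogue group 4 are shown because the group holds a gene read in all 10 libraries (HOXA4), one at 10 reads or fewer (HOXC4) and one with no read at all (HOXD4). They are RefSeq sequences on GRCh38.p14, while the counts are on hg19, and capitals mark each CpG, the dinucleotide at which DNA is methylated. The HOXA4 stretch is chr7:27130758-27131007 on the minus strand with 26 CpG, the HOXC4 stretch is chr12:54016638-54016887 on the plus strand with 14, and the HOXD4 stretch is chr2:176151300-176151549 on the plus strand with 4.
HOXA4: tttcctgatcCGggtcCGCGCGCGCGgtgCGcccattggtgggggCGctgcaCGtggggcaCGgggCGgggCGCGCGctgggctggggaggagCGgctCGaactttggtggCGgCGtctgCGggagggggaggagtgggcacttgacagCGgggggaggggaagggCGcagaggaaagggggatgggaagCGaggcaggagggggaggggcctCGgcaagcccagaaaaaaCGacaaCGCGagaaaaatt
HOXC4: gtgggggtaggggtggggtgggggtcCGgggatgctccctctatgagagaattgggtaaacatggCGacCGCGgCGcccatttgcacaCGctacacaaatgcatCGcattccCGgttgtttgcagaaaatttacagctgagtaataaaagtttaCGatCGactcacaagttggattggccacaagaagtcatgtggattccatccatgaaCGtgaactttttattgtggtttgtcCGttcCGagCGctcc
HOXD4: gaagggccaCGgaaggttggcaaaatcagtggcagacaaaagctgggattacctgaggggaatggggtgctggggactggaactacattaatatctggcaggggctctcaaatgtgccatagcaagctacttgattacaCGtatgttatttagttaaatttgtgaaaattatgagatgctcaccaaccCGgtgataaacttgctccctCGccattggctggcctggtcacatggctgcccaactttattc
RefSeq gives HOXC5 the same first start as HOXC4, so its stretch is identical over all 250 bases. In the table for MCF10A and G12V cells HOXC4, HOXC5 and HOXC6 are all listed from the same start. HOXC6 had between 138 and 274 reads in each of those libraries, so the HOXC4 stretch cannot be read as the promoter of a silent gene. Which start the reads of HOXC6 come from was not tested. Read side by side without gaps, HOXA4 and HOXD4 share 66 of 250 bases, HOXA4 and HOXC4 share 51, and HOXC4 and HOXD4 share 74. The number that unrelated stretches would share was not computed, so these counts are not read as likeness. The table of promoters held 27 stretches for 20 of the 39 genes. The HOXB genes HOXB2, HOXB3, HOXB4, HOXB5, HOXB6, HOXB7, HOXB8, HOXB9 and HOXB13 were among the others. The 27 stretches had a median of 19 CpG, from 0 to 40, beside a median of 11 over all 35116 promoters of the table. GGGCGG, the box bound by SP1, stood on either strand in 48.1% of the HOX stretches and in 42.6% of all promoters. AGGTCA, the half-site of retinoic acid receptors, stood in 0 of the 27 HOX stretches and in 12.1% of all promoters. TGATNNAT, a site of PBX and HOX together, stood in 11.1% of the HOX stretches and 6.47% of all promoters. Such matches are letters in a window and say nothing of whether a factor binds there. HOXD genes, which had no read in MCF10A or G12V libraries, had a median of 22 CpG in 8 stretches. HOXA genes, most of which were expressed, had a median of 19 in 16 stretches of 9 genes. Several of these are starts of HOXA3 alone, with 0 to 26 CpG, so that gene weighs more than others. The stretch shared by HOXC4 and HOXC5 is counted for each of them in the 27.

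The clusters also hold microRNA genes, and 3 of their mature forms are printed because they show a family spread over clusters in the way of the HOX genes themselves. Capitals mark the seed, bases 2 to 8, by which a microRNA finds its targets.
hsa-miR-10a-5p: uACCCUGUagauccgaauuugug
hsa-miR-196a-5p: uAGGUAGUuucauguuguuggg
hsa-miR-196b-5p: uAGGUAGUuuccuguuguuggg
The gene of miR-10a lies in HOXB, miR-196a is made from genes in HOXB and HOXC, and miR-196b from HOXA, and the miR-196 forms share the seed AGGUAGU. All 6 microRNA genes of the clusters that both tables list had 0 reads in each of the 10 libraries, which were made from poly(A) RNA.

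The question put to the first comparison was which HOX genes differ between MCF10A cells and cells carrying the oncogene. HOXB genes were higher in G12V cells. HOXB2, HOXB3, HOXB4, HOXB6 and HOXB9 rose, by 3.39-fold to 45.6-fold, the upper value being that of HOXB9, whose 2 G12V libraries differ widely, and no HOX gene of another cluster passed the test in either direction. The test was edgeR's quasi-likelihood F-test over all 14376 genes with enough reads, and a differentially expressed (DE) gene has a false discovery rate (FDR, the p after Benjamini-Hochberg adjustment) below 0.05 and moved by more than 0.5, up or down, on the log2 scale. Of the 39 HOX genes 28 had a read in at least 1 of these 4 libraries and 21 could be tested. Of the tested, 5 were DE and higher, where 5.01% of all tested genes were, and 0 were DE and lower, where 5.95% of all tested genes were. At an unadjusted p under 0.05 there were 9 HOX genes, of which 5 are the HOXB genes named above, where 25.6% of all tested genes had such a p. With DESeq2 and with edgeR's exact test 0 HOX genes were DE and lower as well. HOXB9 had fewer than 10 reads in each MCF10A library, so it passed the filter on low counts only through the G12V libraries.

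By cluster, the median log2 fold change was 0.17 over 9 tested HOXA genes, 2.16 over 5 tested HOXB genes and -0.15 over 7 tested HOXC genes, beside -0.0011 over all genes tested. The single values ran from -0.58 to 0.88 in HOXA, from 1.76 to 5.51 in HOXB and from -0.78 to 1.78 in HOXC. The lowest HOXB gene, HOXB2, stands just under the highest HOXC gene, HOXC10, which had few reads. By position, the median was 0.27 over 5 anterior genes, 0.36 over 8 central and 0.10 over 8 posterior genes, and DE genes were found in all 3 classes, 2 anterior, 2 central and 1 posterior. Summed over all genes of a cluster, HOXB had 10.2 and 8.19 CPM in MCF10A and 33.6 and 59.9 CPM in G12V libraries. The HOXB sums do not overlap between the groups. HOXA had 72.5 and 74.5 CPM in MCF10A and 75.3 and 65.7 CPM in G12V, and HOXC had 51.9 and 54.2 CPM against 54.0 and 55.6 CPM. A difference between clusters was not tested as such.

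**Figure D1:**
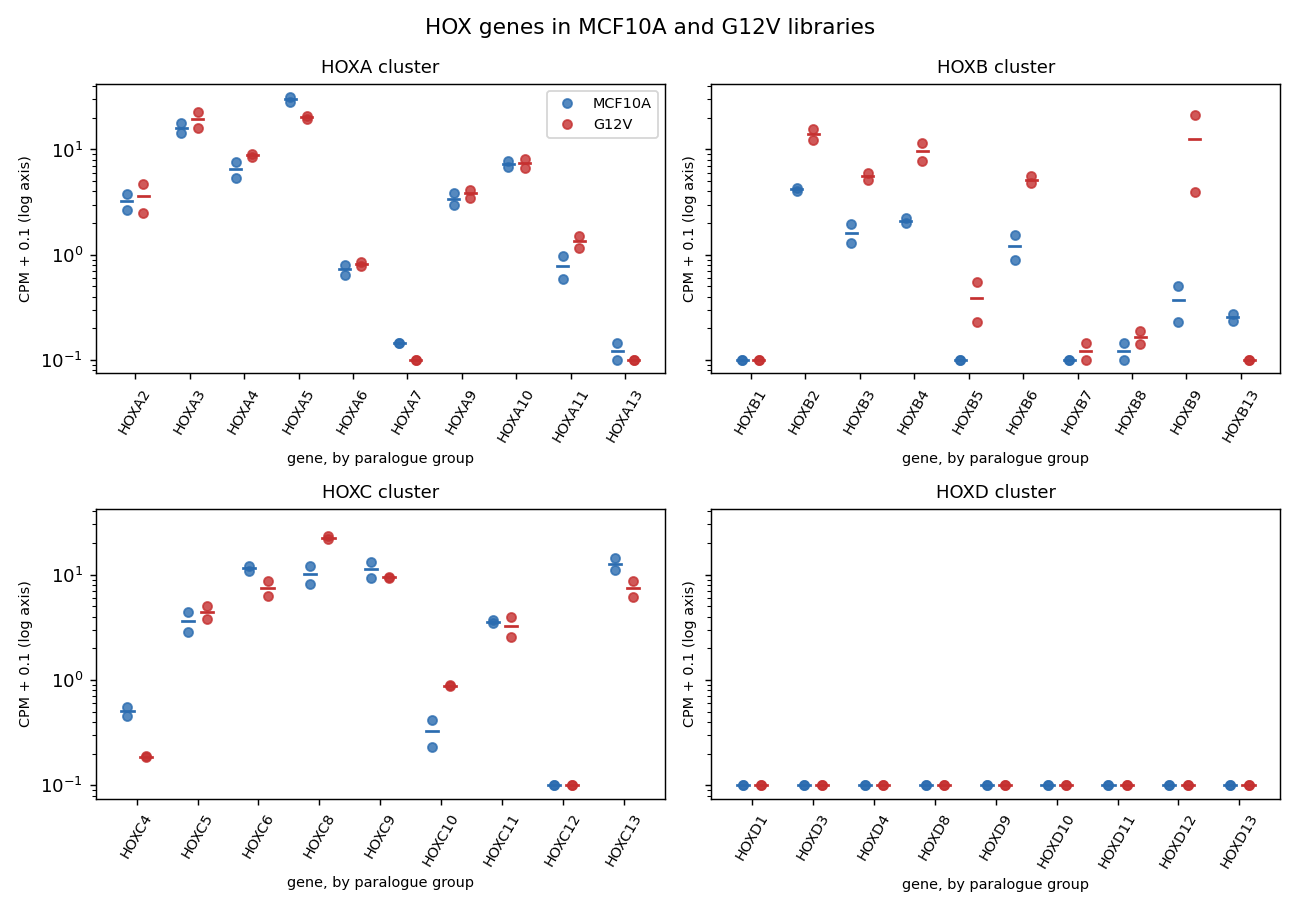
CPM plus 0.1 on a log axis for the HOX genes reported here, 1 panel per cluster and genes by paralogue group, with 2 MCF10A libraries in blue, 2 G12V libraries in red and a line at each mean. In the HOXB panel the red points of HOXB2, HOXB3, HOXB4, HOXB6 and HOXB9 stand above the blue ones, and in the HOXD panel every point stands at 0 CPM.

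The anterior HOXB genes HOXB2 and HOXB3 act in the hindbrain of the embryo. HOXB2, on chromosome 17 from 46620019 to 46622393 on the minus strand (hg19, as are all positions of genes here), had 92 and 90 reads in MCF10A and 286 and 346 reads in G12V libraries, and the groups do not overlap. The change was 1.76 on the log2 scale (edgeR FDR 0.0161, SE 0.29), or 3.39-fold. HOXB3, from 46626232 to 46651810, had 41 and 27 reads in MCF10A and 118 and 132 in G12V, again apart, with a log2 fold change of 1.84 (edgeR FDR 0.0339, SE 0.38), or 3.57-fold. HOXB1, the most anterior gene of the cluster, had 0 reads in all 4 libraries. Both HOXB2 and HOXB3 overlap HOXB-AS1 on the opposite strand, and the sources used here do not say whether the counting used strand, so reads of the 2 strands may not be kept apart. HOXB-AS1 itself had 6 and 6 reads in MCF10A and 18 and 26 in G12V.

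Among the central HOXB genes, HOXB4 is known for expanding blood stem cells when it is overexpressed. HOXB4, from 46652869 to 46655743, had 47 and 43 reads in MCF10A and 180 and 255 in G12V libraries, a log2 fold change of 2.24 (edgeR FDR 0.0148, SE 0.36), or 4.72-fold. No other listed gene overlaps HOXB4 in this table. HOXB6, from 46673099 to 46682334, had 32 and 18 reads against 109 and 122, a log2 fold change of 2.16 (edgeR FDR 0.0280, SE 0.42), or 4.48-fold. The groups do not overlap for either gene. Their neighbours in the same stretch of chromosome were nearly silent in all 4 libraries. HOXB5 had 0 and 0 reads in MCF10A and 3 and 10 in G12V, HOXB7 had 0, 0, 0 and 1, and HOXB8 had 0, 1, 1 and 2, in the order MCF10A 1, MCF10A 2, G12V 1 and G12V 2. None of the 3 could be tested.

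HOXB9, a posterior gene with a part in the development of the mammary gland after birth, had the largest log2 fold change of the tested HOX genes and the widest spread. HOXB9, from 46698519 to 46703835, had 9 and 3 reads in MCF10A, and 90 and 475 reads in G12V libraries. The groups do not overlap, but the G12V libraries themselves differ, with 3.85 CPM in replicate 1 and 21.2 CPM in replicate 2. The log2 fold change was 5.51 (edgeR FDR 0.0250, SE 1.04), and with a library left out it ran from 3.81 without G12V replicate 2, where the gene was still DE, to 6.51 without MCF10A replicate 1, where it was not. HOXB13, the most posterior gene, set apart from the rest of the cluster and known from prostate, had 3 and 4 reads in MCF10A and 0 and 0 in G12V, the other direction, on too few reads to test.

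All 5 HOXB calls were lost without MCF10A replicate 1, at edgeR FDR from 0.119 to 0.202, and in that fit 0 of all genes were DE. Without MCF10A replicate 2, HOXB2, HOXB4 and HOXB9 were DE while HOXB3 (edgeR FDR 0.155) and HOXB6 (FDR 0.105) were not. The directions were the same in every one of these fits.

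**Figure D2:**
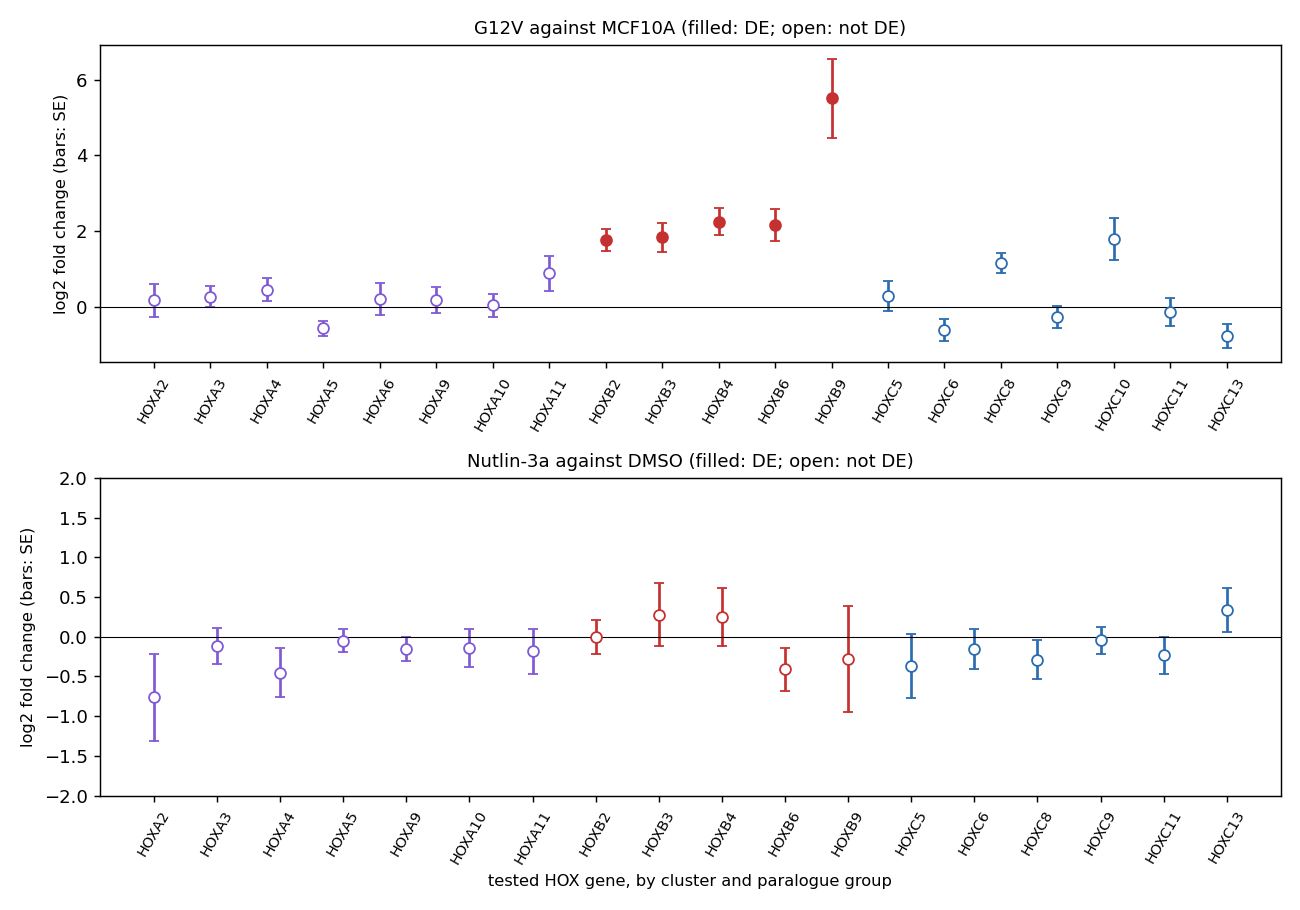
Log2 fold changes of the tested HOX genes reported here with their standard errors, upper panel G12V against MCF10A and lower panel Nutlin-3a against DMSO, coloured by cluster, filled where DE and open where not. The axes differ in range, and only HOXB genes are filled, all in the upper panel.

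Within HOXC the genes moved both ways. HOXC8, which patterns the thoracic skeleton, on chromosome 12 from 54402890 to 54406545, had 264 and 185 reads in MCF10A and 507 and 519 in G12V libraries, which do not overlap. Its log2 fold change of 1.15 (SE 0.28) just missed the threshold, at an edgeR FDR of 0.0520. It passed with DESeq2 (FDR 0.00547), with edgeR's exact test (FDR 0.00609), with a filter on CPM (FDR 0.0474) and without G12V replicate 1 (FDR 0.0416). HOXC10, a posterior gene of the hindlimb, had only 7 and 3 reads in MCF10A and 18 and 18 in G12V, with a log2 fold change of 1.78 (edgeR FDR 0.105, SE 0.56). It passed with edgeR's exact test, at an FDR of 0.0354, but like HOXB9 it entered the test only through the G12V libraries, where it is high. HOXC13, which drives keratin genes of hair and nail and lies at the posterior end from 54332576 to 54340328, had 243 and 324 reads in MCF10A and 142 and 194 in G12V, lower in both, with a log2 fold change of -0.78 (edgeR FDR 0.187, SE 0.31). HOXC6 had 237 and 274 reads against 202 and 138, with a log2 fold change of -0.63 (SE 0.30). For the other tested genes of the cluster the groups overlap. HOXC9 had 204 and 299 reads in MCF10A and 220 and 207 in G12V, HOXC5 had 96 and 62 against 115 and 83, and HOXC11 had 80 and 76 against 58 and 86. HOXC4 had 10 and 8 reads in MCF10A and 2 and 2 in G12V and could not be tested, and HOXC12 had none. The spans of HOXC4, HOXC5 and HOXC6 overlap on the same strand, so the way in which shared reads were given to these 3 genes can move their counts.

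No HOXA gene passed the test. HOXA5, a central gene whose product can raise p53 in breast cells, had 621 and 716 reads in MCF10A and 481 and 437 in G12V libraries. The groups do not overlap, and the log2 fold change of -0.58 (SE 0.21) did not pass, at an edgeR FDR of 0.149. HOXA4 had 117 and 169 reads in MCF10A and 195 and 202 in G12V, and HOXA11 had 19 and 11 against 33 and 24. Both are higher in the 2 G12V libraries than in either MCF10A library, with log2 fold changes of 0.44 (SE 0.31) and 0.88 (SE 0.47) and edgeR FDR of 0.447 and 0.316. For the others the groups overlap. The anterior HOXA2 and HOXA3 had 56 and 84, and 387 and 325 reads in MCF10A, and 107 and 54, and 527 and 355 reads in G12V. HOXA6 had 12 and 16 reads in MCF10A and 16 and 17 in G12V, with groups that touch in reads and whose fitted log2 fold change was 0.20. The posterior HOXA9 had 83 and 65 reads against 95 and 76, and HOXA10 had 169 and 151 against 189 and 147. HOXA7 and HOXA13 had at most 1 read in any library. The 9 HOXD genes had 0 reads in all 4 libraries, where 3 reads, the number a count of 0 allows, come to between 0.128 and 0.136 CPM.

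Over all 21 tested HOX genes the groups did not overlap in 9 that were higher in G12V, where 27.5% of all tested genes stood apart in that direction. They stood apart in the lower direction in 3, HOXA5, HOXC6 and HOXC13, where 27.4% of all tested genes did. With 2 libraries in each group, groups that stand apart are common in this table.

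Counts of different genes compare only per length, so CPM were divided by the length of the MANE Select transcript in kb. On that scale HOXA5 was the highest HOX gene in both groups, at 17.9 CPM per kb in MCF10A and 11.99 in G12V. In MCF10A it was followed by HOXC9 at 7.61, HOXC6 at 6.92, HOXC13 at 5.37 and HOXA3 at 5.27 CPM per kb. HOXA5 stands clear of the rest there, with its lower library at 16.9 CPM per kb, while HOXC9, from 6.29 to 8.93, and HOXC6, from 6.52 to 7.31, overlap each other. In G12V the next were HOXC8 at 9.27 and HOXB2 at 8.22 CPM per kb. Their libraries overlap, from 8.97 to 9.58 for HOXC8 and from 7.27 to 9.18 for HOXB2. HOXB2 stood 10th in MCF10A and 3rd in G12V, HOXB9 22nd and 7th, HOXB4 15th and 8th, HOXB6 16th and 11th, and HOXB3 18th and 17th, so that HOXB3 hardly moved in the order. HOXB9 at 4.84 CPM per kb in G12V ranged from 1.49 to 8.19 over its 2 libraries, wider than the gap to its neighbours in the order.

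The genes around the clusters were read for comparison. Within 1 Mb of HOXB 26 other genes were tested, with a median log2 fold change of -0.0067, 2 DE and higher and 2 DE and lower. Distances are from the middle of the cluster to the middle of the gene. The tested gene nearest to HOXB on the one side was SNX11 at -514 kb, with a log2 fold change of -0.27 (SE 0.30), and on the other CALCOCO2 at 219 kb, with 0.71 (SE 0.28), neither of them DE. The DE genes were ATP5G1 at 265 kb (log2 fold change 1.32), TBKBP1 at -925 kb (1.74), PRR15L at -674 kb (-4.51) and NGFR at 876 kb (-5.27). The 5 HOXB genes ran from 1.76 to 5.51, and of the 26 neighbours none reached 1.76. Near HOXA 8 genes were tested with a median of 0.35 and 1 DE, higher, and near HOXC 32 with a median of 0.27 and 5 DE, all higher. Near HOXD, silent itself, 6 genes were tested and none was DE. The shares DE over all tested genes were 5.01% higher and 5.95% lower. PRR15L passed the filter only through the MCF10A libraries, where it is high.

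**Figure D3:**
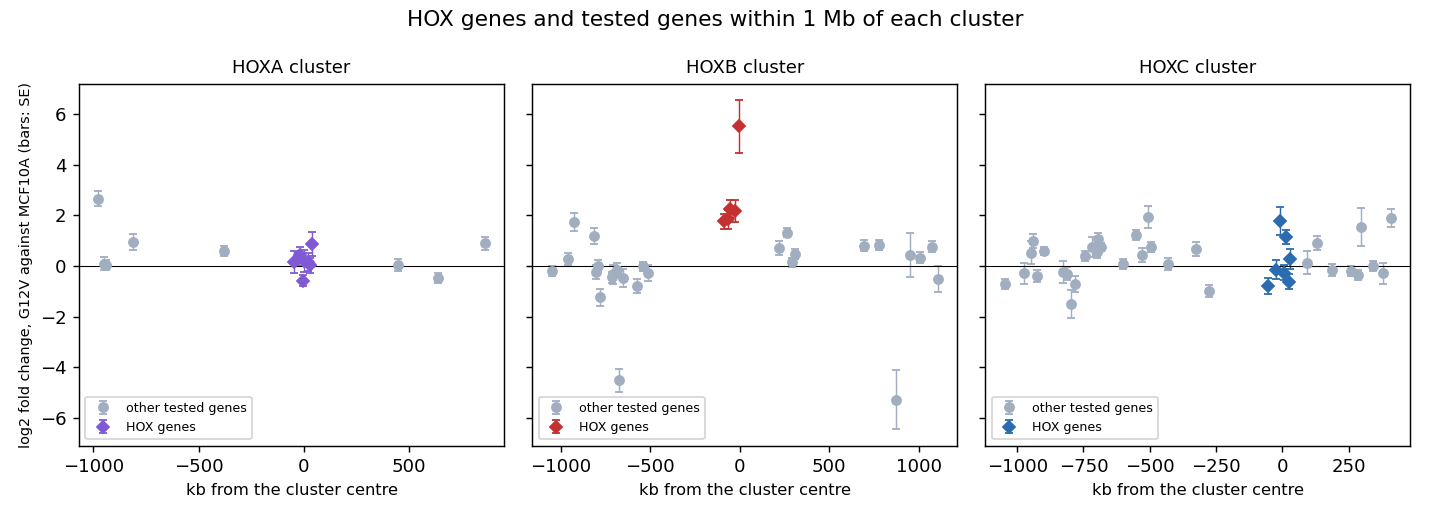
Log2 fold change in G12V against MCF10A with its standard error against the distance in kb from the middle of the HOXA, HOXB and HOXC clusters, diamonds for the tested HOX genes reported here and grey circles for other tested genes within 1 Mb. The 5 HOXB diamonds lie between 1.76 and 5.51 with the circles on both sides around a median of -0.0067.

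Partners and regulators of HOX genes were read as lists. The counts of DE members that follow, of 1 in each direction at most, are to be read beside the 5.01% DE and higher and 5.95% DE and lower of all tested genes, and nothing is called particular to a list. Of the 9 TALE cofactors 7 were tested, and MEIS3 was the one DE gene. MEIS3, on chromosome 19 from 47906375 to 47922785, had 25 and 22 reads in MCF10A and 144 and 291 in G12V libraries, a log2 fold change of 3.18 (edgeR FDR 0.0131, SE 0.49). The 6 other tested cofactors had fitted values below 0. The lowest was MEIS1, with 105 and 127 reads against 41 and 56 (log2 fold change -1.28, edgeR FDR 0.0787). MEIS1 passed with DESeq2, at an FDR of 0.0395, and in that fit the list held DE genes in both directions. PBX2, the cofactor with the most reads, had 1193 and 1268 reads in MCF10A and 1199 and 1240 in G12V.

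Of the 16 non-coding RNAs of the clusters found here 8 were tested, and HOXC13-AS was DE, and lower. HOXC13-AS, which runs against HOXC13 on chromosome 12 from 54329112 to 54333427, had 32 and 36 reads in MCF10A and 4 and 6 in G12V libraries, a log2 fold change of -2.77 (edgeR FDR 0.0188, SE 0.48). It passed the filter on low counts only through the MCF10A libraries, where it is high, and the call was lost without either MCF10A replicate. Its partner HOXC13 lay in the same direction without passing. The spans of HOXC13 and HOXC13-AS overlap on opposite strands, and reads of opposite strands may not be kept apart. HOXB-AS1 and HOXA11-AS were higher in both G12V libraries without passing the test, at log2 fold changes of 1.82 and 1.93 and edgeR FDR of 0.0715 and 0.0810, and both passed with edgeR's exact test, at FDR of 0.0202 and 0.0294. These too entered the test only through the G12V libraries. HOTAIR, made from the strand opposite HOXC11 and known for recruiting Polycomb, had 13 and 14 reads in MCF10A and 6 and 12 in G12V. HOTAIRM1, made from the HOXA cluster, had 188 and 185 against 220 and 284.

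Among 20 Polycomb and Trithorax genes, all tested, CBX6, a reader of the Polycomb mark, was DE and higher, 1 of 20 where 5.01% of all tested genes were, with 1120 and 998 reads against 2862 and 2268 and a log2 fold change of 1.24 (edgeR FDR 0.0141, SE 0.19). Of 14 genes of retinoic acid synthesis, breakdown and response 8 were tested, with 4 fitted values above 0 and 4 below. ALDH1A3, the enzyme of the list with the most reads, was lower in both G12V libraries without being DE. It had 4008 and 2199 reads in MCF10A and 1546 and 1046 in G12V. Its log2 fold change was -1.31 (edgeR FDR 0.0678, SE 0.35). ALDH1A1, an enzyme that makes retinoic acid, had 0 and 0 reads in MCF10A and 49 and 96 in G12V, at least 23.8-fold higher when 3 reads are set against the 0, and was DE, having passed the filter only through the G12V libraries. RXRA, the partner of the retinoic acid receptors, was DE and lower, with 4253 and 5609 reads against 2130 and 2026, a log2 fold change of -1.28 (edgeR FDR 0.0143, SE 0.20). The calls of MEIS3, CBX6, ALDH1A1 and RXRA were lost without MCF10A replicate 1, as was each other call in the table.

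The second experiment asked what 4 h of Nutlin-3a do. No HOX gene passed the test. Of the 39 HOX genes 29 had a read and 19 could be tested, and 0 were DE with edgeR's quasi-likelihood test, where 0.155% of all 13529 tested genes were DE and higher and 0.0148% DE and lower. With an unadjusted p under 0.05 there were also 0 HOX genes, and DESeq2 and edgeR's exact test gave 0 DE each. In a fit blocked on the replicate number 0 HOX genes were DE and 2 had an unadjusted edgeR p under 0.05, where 0.702% of all tested genes were DE and higher, 0.517% DE and lower, and 11.7% had such a p. In CPM 1 of the 19 was higher in every same-numbered pair and 6 were lower in every one, where 15.0% and 17.7% of all tested genes were. The tested HOX genes had a median log2 fold change of -0.15, beside 0.0066 over all genes, with 3 fitted values above 0 and 16 below. Over all tested genes 7012 lay above 0 and 6517 below. The groups stood apart in 1 of the 19, HOXA4, where 8.07% of all tested genes stood apart in either direction. In the fit without pairs a change smaller than the spread between these libraries was not detectable. Its standard errors ran from 0.15 for HOXA5 to 0.67 for HOXB9. In the blocked fit they ran from 0.11 for HOXA5 to 0.40 for HOXA2, with 0.26 for HOXB9.

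The HOXB genes that were higher in G12V cells lay on both sides of 0 here. HOXB2 had 57, 45 and 62 reads in DMSO and 53, 51 and 47 in Nutlin-3a libraries, a log2 fold change of -0.0023 (SE 0.21). HOXB3 had 14, 11 and 15 against 24, 11 and 10 (log2 fold change 0.28, SE 0.40), and HOXB4 had 33, 18 and 30 against 34, 17 and 37 (0.25, SE 0.36). HOXB6 had 71, 36 and 55 against 43, 38 and 31 (-0.41, SE 0.27). HOXB9 again had the widest spread, with 76, 36 and 18 reads in DMSO and 49, 44 and 6 in Nutlin-3a libraries, and a log2 fold change of -0.28 (SE 0.67). In both groups replicate 3 was the lowest. HOXB5, HOXB7 and HOXB8 had at most 5 reads in any library, and HOXB1 and HOXB13 had 0 in all.

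The HOXA genes were fitted below 0 in all 8 tested, none of them with an unadjusted p under 0.05. Over all 13529 tested genes 6517 were fitted below 0. Without DMSO replicate 1 the values of HOXA3, HOXA5, HOXA10 and HOXA11 were above 0. The spans of HOXA3 and HOXA4 overlap on the same strand here, so the 8 are not all separate. HOXA2 had 30, 14 and 12 reads in DMSO and 14, 3 and 13 in Nutlin-3a libraries, and HOXA3 had 142, 87 and 93 against 97, 79 and 96. HOXA2 had the lowest log2 fold change, -0.76 (SE 0.55), on these few reads. HOXA4 had 17, 16 and 25 reads against 12, 14 and 13, HOXA5 had 371, 252 and 319 against 302, 274 and 262, and HOXA9 had 240, 184 and 202 against 169, 175 and 174. The reads of HOXA4 and HOXA9 are lower in each Nutlin-3a library than in each DMSO library, and in CPM, which allow for depth, only HOXA4 keeps the groups apart. HOXA10 had 162, 85 and 123 against 120, 88 and 100, and HOXA11 had 48, 29 and 27 against 26, 32 and 26. HOXA6 had between 2 and 7 reads in each library, HOXA7 at most 1 and HOXA13 none.

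In HOXC the highest value was that of HOXC13, with 212, 313 and 355 reads in DMSO and 244, 343 and 441 in Nutlin-3a libraries, a log2 fold change of 0.34 (SE 0.28). HOXC8 had 350, 390 and 420 against 185, 345 and 345 (-0.29, SE 0.25), so that Nutlin-3a replicate 1 stands below the other libraries. HOXC9 had 261, 181 and 192 against 202, 201 and 162 (-0.05, SE 0.17), and HOXC6 had 183, 122 and 102 against 143, 107 and 88 (-0.15, SE 0.25). The groups overlap in CPM for each of these genes. Read by same-numbered pairs, HOXC13 was higher with Nutlin-3a in all 3, from 11.7 to 15.0, 19.2 to 21.3 and 20.7 to 29.0 CPM, and HOXC8 and HOXC6 were lower in all 3. In the fit blocked on the pairs the unadjusted edgeR p was 0.00902 for HOXC13 (FDR 0.188) and 0.0261 for HOXC8 (FDR 0.324), and neither was DE. HOXC11 had 78, 71 and 98 against 53, 67 and 73, and HOXC5 had 12, 9 and 14 against 12, 5 and 8. HOXC10, at 4 to 6 reads, was not tested here, HOXC4 had at most 2 reads and HOXC12 none. The HOXD cluster had between 0 and 3 reads in all per library, from HOXD11, HOXD12 and HOXD13.

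**Figure D4:**
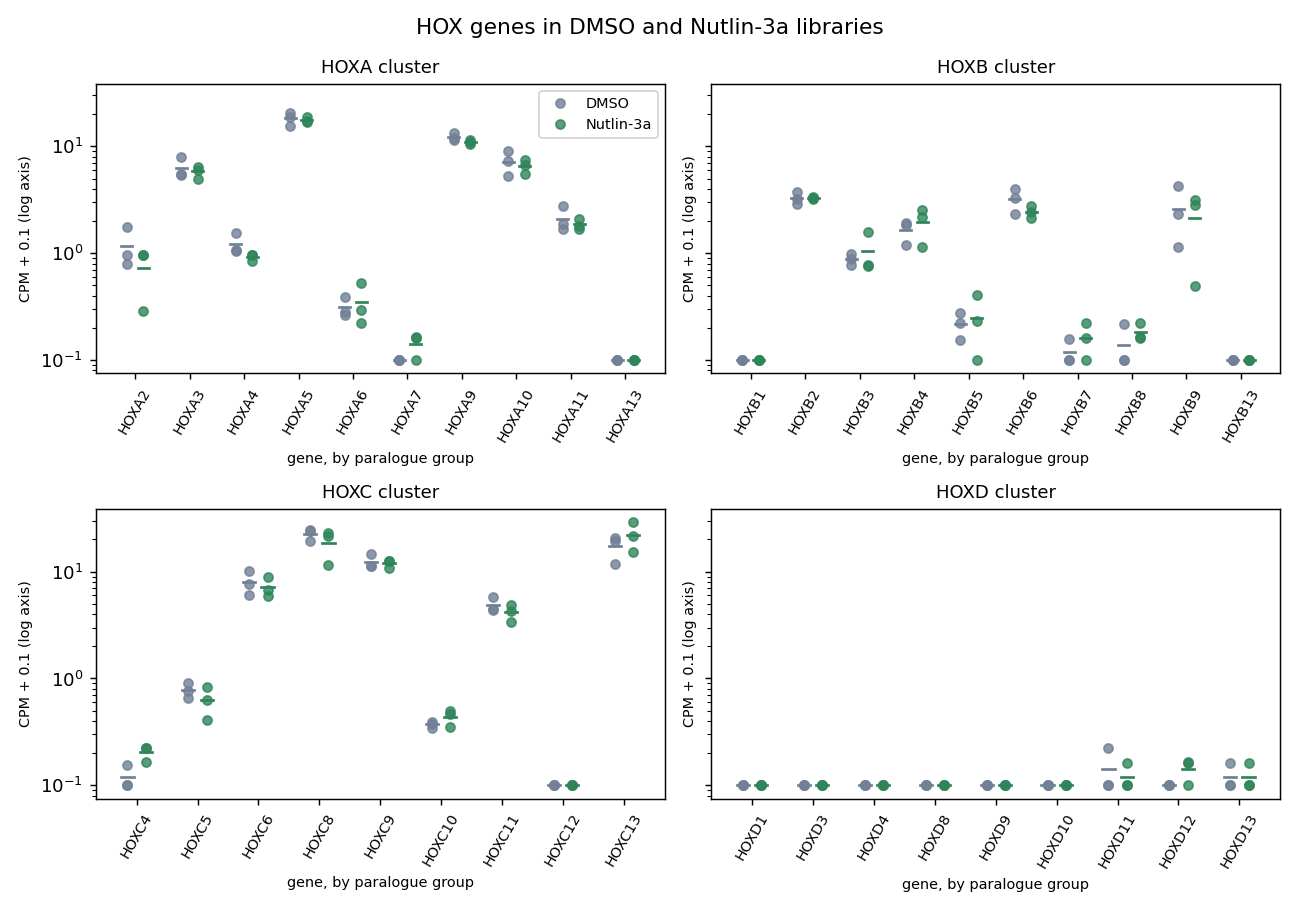
CPM plus 0.1 on a log axis for the HOX genes reported here, 1 panel per cluster, with 3 DMSO libraries in grey, 3 Nutlin-3a libraries in green and a line at each mean. Among the tested genes drawn the groups overlap in all but HOXA4, and HOXB9 spans the widest range of the tested genes.

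No gene of the lists passed the test in the fit without pairs. Of 7 tested TALE cofactors, 4 tested non-coding RNAs, 20 Polycomb and Trithorax genes and 7 tested retinoic acid genes 0 were DE with edgeR, and 3 of the Polycomb and Trithorax genes had an unadjusted p under 0.05, where 3.42% of all tested genes did. These were CBX2, EZH2 and RNF2, subunits of Polycomb complexes, each lower in Nutlin-3a with groups apart. Of the 20 genes, 5 stood apart and lower and 0 apart and higher. Over all tested genes 8.07% stood apart in either direction. Of the 20 fitted values 13 lay below 0 and 7 above. CBX2 had 422, 420 and 408 reads in DMSO and 268, 264 and 239 in Nutlin-3a libraries, a log2 fold change of -0.58 (edgeR FDR 0.225, SE 0.12). EZH2 and RNF2 had log2 fold changes of -0.35 and -0.34, and an edgeR FDR of 0.9997 each. They are named after their values were seen, and the fit with the replicate block was not read for them. MEIS3 had 35, 33 and 25 reads in DMSO and 21, 40 and 25 in Nutlin-3a libraries. HOXC13-AS had 74, 227 and 170 reads in DMSO and 68, 322 and 227 in Nutlin-3a libraries, so that replicate 1 was the lowest of both groups, as it was for HOXC13.

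The 2 tables were counted on different annotations and are set side by side with no test. HOXD stood at or near 0 in both, and by group means HOXA5 was the highest HOX gene per kb in all 4 groups. In DMSO its mean was 10.9 CPM per kb, with HOXC8 next at 9.35. In Nutlin-3a its mean was 10.5, with HOXC13 next at 9.24. Single libraries of that experiment did not all keep this order. Levels of single genes were not alike in parental cells. Mean CPM in untreated MCF10A and in DMSO libraries were 6.38 and 1.13 for HOXA4, and 3.55 and 0.678 for HOXC5. They were 3.32 and 12.1 for HOXA9, and 1.12 and 3.12 for HOXB6. The part of the annotation in these differences was not tested. HOXB summed to between 8.82 and 13.9 CPM in the 6 libraries of the Nutlin-3a experiment, near the MCF10A libraries of the other table and below the G12V libraries. HOXB9 had 4.20, 2.21 and 1.05 CPM in DMSO and 0.409 and 0.132 CPM in untreated MCF10A libraries, beside 3.85 and 21.2 CPM in G12V. The first DMSO library, of parental cells, thus stands above the lower G12V library for the HOX gene with the largest fold change. HOXC8 had 19.4, 23.9 and 24.5 CPM in DMSO, in the range of the G12V libraries with 21.7 and 23.1 CPM rather than of the untreated MCF10A libraries with 11.999 and 8.15 CPM. Of the 39 HOX spans in the first table, 18 overlap another listed gene, 6 on the same strand and 14 on the opposite one, and in the second 32 do, 22 and 22. Of these, 3 in the first table and 16 in the second overlap another HOX gene, HOXB9 with HOXB7 and HOXB4 with HOXB3 among them in the second only.

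**Figure D5:**
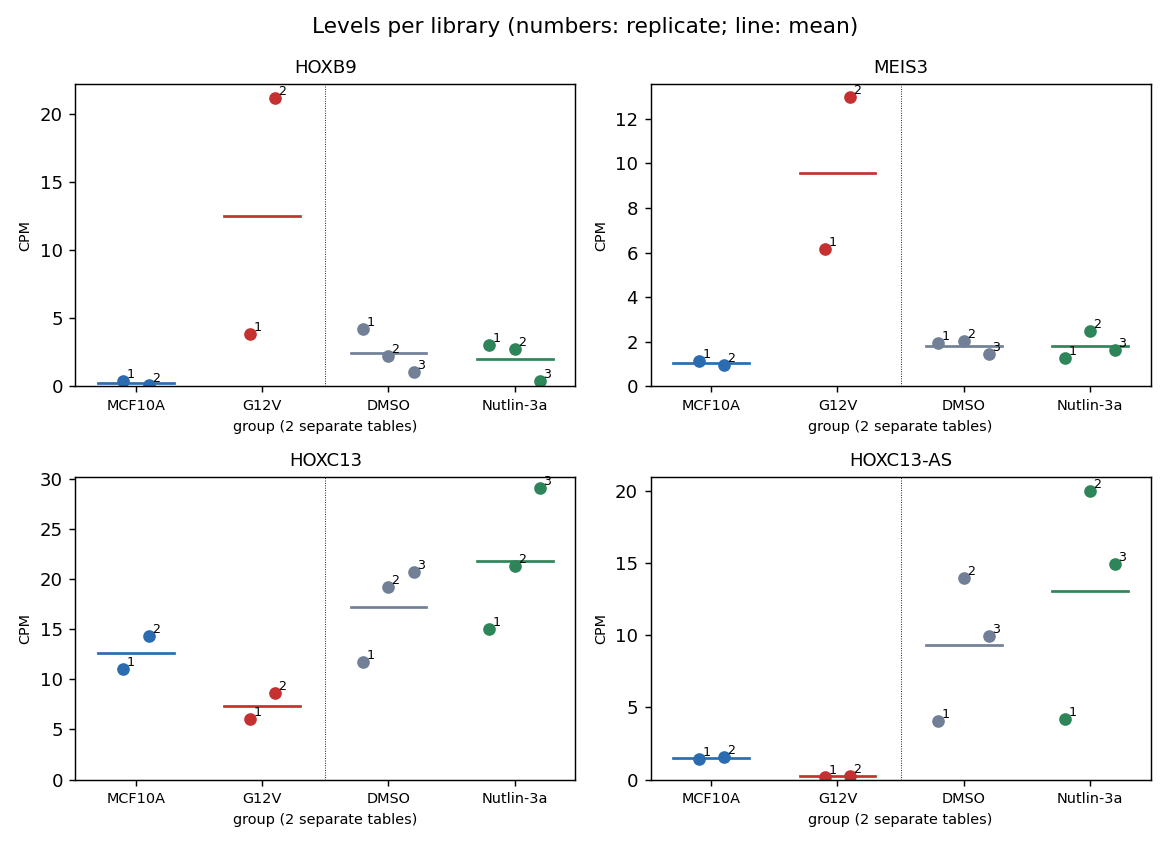
CPM of HOXB9, MEIS3, HOXC13 and HOXC13-AS in each of the 10 libraries, numbered by replicate, with a line at each group mean and a dotted line between the 2 separately counted tables. MEIS3 stands highest in the G12V libraries, HOXB9 in DMSO replicate 1 stands above G12V replicate 1 though below G12V replicate 2, HOXC13-AS is near 0 in G12V, and in the Nutlin-3a experiment the numbered libraries of HOXC13, and likewise those of HOXC13-AS, lie in the same order in the DMSO and Nutlin-3a columns.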

How the data were processed

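Poly(A) RNA was sequenced. The authors mapped the reads to hg19 by TopHat2, assigned them to genes by HTSeq and deposited the raw counts, not normalized, as 2 tables on different annotations. Annotation, strand setting and overlap rule are not given in the sources used here. The kit is not described as keeping strand. The 2 tables were analysed separately in R 4.3.3 by edgeR 4.0.16 (filterByExpr, TMM, quasi-likelihood F-test, Benjamini-Hochberg over all tested genes, prior count 0.125, SE equal to the size of the log2 change divided by the root of F), after the fit was tested on simulated data. CPM use TMM-scaled totals. HOX genes were named by cluster and position, with library values for those DE or tested in either table and counts for the others. Some members of the HOX and cofactor lists, counted in the totals and medians, are not reported here by name. List members were named where DE, and further members and the neighbours SNX11 and CALCOCO2 were chosen after their values were seen. The members and lists were chosen with earlier results of these data known. The fits were repeated by DESeq2 1.42.0 and edgeR's exact test, with other factors, filters, thresholds and prior count, with the replicate block, and without each library. DMSO and Nutlin-3a libraries carry numbers 1 to 3 in the labels. Same-numbered libraries deviated together from their groups, with correlations of 0.65, 0.68 and 0.70, so the numbers were read as pairs. All other pairs had -0.52 to -0.22. Deviations within a group cancel, so these negative values follow from the positive ones and add no support. The values given are from the fit without them, and results of the fit with the number as a block are given for some HOX genes and over all genes. Reads carry no molecular identifiers, so floors of 3 reads cover counting error only. Start positions were written 1-based. Promoter and microRNA sequences are from RefSeq (GRCh38.p14), and transcript lengths from GENCODE's lift to hg19. Sequences were read and figures drawn with Python 3.11.15, pandas 2.3.3 and matplotlib 3.10.9. ATAC-seq, ChIP-seq and 4C were not analysed here.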

Additional observations from a re-analysis of the deposited data

How the results depend on the processing

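The count of HOX genes DE and higher in G12V cells, 5 as reported, was 5 to 7 with other factors, filters, tools, prior count, the replicate block or the thresholds of the unadjusted edgeR p and a 1.3-fold change. With a library left out it ran from 0 (without MCF10A replicate 1) to 6, and was 3 without MCF10A replicate 2. The count DE and lower, 0 as reported, was 2 with the unadjusted threshold. Over all tested genes 25.6% had an unadjusted edgeR p under 0.05, in either direction and before the threshold on fold change. The HOXC median of -0.15 ran from -0.33 (without G12V replicate 2) to -0.020 (without MCF10A replicate 2), and the HOXA and HOXB medians from 0.030 to 0.29 and from 1.79 to 2.35. In the Nutlin-3a experiment 0 HOX genes were DE in all 16 alternatives, and the HOX median ran from -0.21 to 0.05 with a library left out, positive without DMSO replicate 1. The cause of these changes was not tested.

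MCF10A and G12V libraries share numbers, with a correlation of 0.55 between deviations of the same number, over 2 pairs that nothing else links. With 2 libraries in each group both pairs have this value by construction, and the others have it with a minus sign. With the number as a replicate block 7 HOX genes were DE and higher, HOXC8 and HOXC10 added, and 2 DE and lower, HOXA5 and HOXC13, while over all genes 2071 were higher and 2087 lower. In the Nutlin-3a experiment the block changed no HOX call, over all genes gave 95 higher and 70 lower in place of 21 and 2, and turned HOXB2 from -0.0023 to 0.0021.

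Over all genes the genes DE and higher or lower in G12V were 1105 and 1187 with DESeq2 and 1230 and 1306 with edgeR's exact test. In the Nutlin-3a experiment they were 61 and 20 with DESeq2, 65 and 19 with the exact test and 71 and 28 with no filter.

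Some of the genes that were not DE changed sign with a library left out, and others kept theirs. Among those reported here, in G12V these ranges were -0.13 to 0.17 (HOXA10), -0.38 to 0.55 (HOXA2), -0.012 to 0.50 (HOXA3), -0.020 to 0.41 (HOXA9), -0.49 to 0.13 (HOXC11), -0.020 to 0.68 (HOXC5) and -0.47 to 0.0050 (HOXC9). In the Nutlin-3a experiment they were -0.32 to 0.063 (HOXA10), -0.33 to 0.075 (HOXA11), -0.21 to 0.090 (HOXA3), -0.15 to 0.047 (HOXA5), -0.093 to 0.10 (HOXB2), -0.21 to 0.47 (HOXB3), -0.66 to 0.34 (HOXB9), -0.34 to 0.077 (HOXC6) and -0.11 to 0.088 (HOXC9). Where 1 library of 2 was left out, the other was assumed to vary like the remaining group.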
